A study of Mus musculus with 3 samples.

Results

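The 8 constant-region genes of the mouse antibody heavy chain (Ighm, Ighd, Ighg1, Ighg2b, Ighg2c, Ighg3, Igha and Ighe) and Jchain were examined in immune cells of inflamed sciatic nerve. These 9 genes were chosen by name from the 32285 gene rows of the matrices. They were followed in each cell: the isotype gene with the most UMIs was taken as the isotype of a B cell or plasma cell, and the UMIs of the same genes in other immune cells were taken as background. A UMI, or unique molecular identifier, stands for a single transcript molecule caught in a droplet. Levels are given in ppm, the UMIs of a gene among 1000000 UMIs of all genes in a class of cells.

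The cells were CD45+ immune cells sorted from the sciatic nerves of neuropathic NOD.AireGW/+ mice, and their 5′ gene expression was profiled on the 10x platform. All mice carried the GW allele of Aire, a partial loss-of-function allele of a gene needed for immune tolerance, in heterozygous form on the autoimmunity-prone NOD background, and all had developed spontaneous neuropathy. All 3 libraries belonged to the same group. A single mouse gave each of libraries 1 and 2, while the cells of library 3 were a mixture from 2 mice. There was no control group and the labels give no age, so cell classes were compared within libraries and no effect of disease was tested.

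The heavy-chain constant gene decides the class of an antibody. Naive B cells splice their variable region to Ighm and Ighd and carry IgM and IgD on the surface. After activation, class-switch recombination deletes Ighm, Ighd and whatever lies before the chosen gene, so that a switched cell makes IgG (Ighg genes), IgA (Igha) or IgE (Ighe). Plasma cells secrete the antibody in bulk, and Jchain encodes the joining chain that links IgM pentamers and IgA dimers and lets them bind the polymeric immunoglobulin receptor. All 8 constant genes lie on the minus strand of chromosome 12 of GRCm38 (mm10), in the 5′ to 3′ order Ighm, Ighd, Ighg3, Ighg1, Ighg2b, Ighg2c, Ighe, Igha, from Ighm at chr12:113418558-113422730 to Igha at chr12:113254830-113260236. Jchain lies elsewhere, on the minus strand at chr5:88519809-88527891. No annotated gene of the reference overlapped any of the 9.

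The first 90 bases of the first constant-region exon of each gene are shown because this exon, next to the variable region, is where an isotype can be read from a 5′ library. They were read from the GRCm38 reference genome, 5′ to 3′ along the minus strand. In the 4 IgG genes, capitals mark the positions at which the 4 do not all have the same base.
Ighm: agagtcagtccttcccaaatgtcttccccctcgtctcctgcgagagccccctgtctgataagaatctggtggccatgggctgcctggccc
Ighd: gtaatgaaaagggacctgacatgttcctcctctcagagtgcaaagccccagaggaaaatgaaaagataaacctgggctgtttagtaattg
Ighg3: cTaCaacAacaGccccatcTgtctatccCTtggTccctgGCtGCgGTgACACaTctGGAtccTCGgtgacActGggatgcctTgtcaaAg
Ighg1: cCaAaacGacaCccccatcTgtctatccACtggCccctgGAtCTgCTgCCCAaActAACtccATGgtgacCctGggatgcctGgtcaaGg
Ighg2b: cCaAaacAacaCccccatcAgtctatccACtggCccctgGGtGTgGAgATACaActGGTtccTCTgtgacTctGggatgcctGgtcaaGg
Ighg2c: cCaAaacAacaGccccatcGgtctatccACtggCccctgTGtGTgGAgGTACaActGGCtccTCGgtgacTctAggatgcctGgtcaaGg
Ighe: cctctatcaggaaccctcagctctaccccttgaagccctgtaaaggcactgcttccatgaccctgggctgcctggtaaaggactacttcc
Igha: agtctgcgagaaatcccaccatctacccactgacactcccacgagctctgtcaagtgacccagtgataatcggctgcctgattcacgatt

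These stretches ran from chr12:113422641-113422730 for Ighm, chr12:113416235-113416324 for Ighd, chr12:113361143-113361232 for Ighg3 and chr12:113330434-113330523 for Ighg1. Those of Ighg2b, Ighg2c, Ighe and Igha were at chr12:113307844-113307933, chr12:113288843-113288932, chr12:113273159-113273248 and chr12:113260147-113260236. The 4 IgG genes had first exons of equal length, 291 bases, and differed from each other at 88 positions in all, of which 29 fell in the bases shown. Between pairs of them, identity over the exon ran from 78.4% (Ighg3 and Ighg2c) to 88.3% (Ighg1 and Ighg2b). Ighg2b and Ighg2c differed at 36 of the 291 positions and at 7 of the bases shown, and their longest identical run was 34 bases. Reads that cover only shared bases could be split or lost between these genes, so small UMI counts of an IgG gene beside large counts of another are uncertain.

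Libraries 1, 2 and 3 held 3926, 8311 and 1533 barcodes with 22983991, 55120460 and 3399733 UMIs. After the limits on UMIs, genes and mitochondrial share, 3848, 8256 and 1533 cells remained, with a median of 3956, 4632.5 and 1726 UMIs per cell. The libraries shared 7 to 36 barcodes in pairs. Doublets were not removed. Cells were put into classes by markers that hold none of the 9 genes, which gave 96 plasma cells (23, 72 and 1 in libraries 1 to 3), 518 B cells (214, 229 and 75), 7224 T cells, 133 NK cells, 2299 macrophages or monocytes, 174 conventional dendritic cells (cDCs) and 62 plasmacytoid dendritic cells (pDCs). The gates use the markers and refuse plasma and B cells with a Cd3 UMI, so these levels follow in part from the gates and are not a finding. In plasma cells of libraries 1 and 2 all 8 plasma cell markers were detected, and T cell markers were at 0 to 1.55 ppm. Their B cell markers were at 623 to 894 ppm. In B cells all 8 B cell markers were detected, at 4214 to 6896 ppm, with T cell markers at 0 to 7.39 and plasma cell markers at 651 to 775. Means and SDs below are over libraries (n = 3, or n = 2 for plasma cells). With the library as a block, the tests measure only how class differences vary between these libraries. The tests between gated classes came from 1 fit, so each rests on a spread shared by all classes. Intervals are exact binomial 95% intervals and cover counting error only.

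Ighm and Ighd, the genes of unswitched B cells, marked the B cells of all 3 libraries at nearly the same level. Ighm stood at 501, 581 and 503 ppm in the B cells of libraries 1, 2 and 3 (528 ± 45.7, SD, n = 3). Ighd stood at 198, 203 and 214 ppm (205 ± 8.67). Ighd was far lower in the other classes: it reached at most 9.40 ppm in any library's T cells, 7.97 in NK cells, 4.78 in cDCs and 1.63 in macrophages. The ungated cells of library 1 had 53.5 ppm of Ighd, and its T cells held 123 Ighd UMIs against 158 in its B cells. Ighm was nearer to background, with a level in T cells of 168, 87.9 and 55.4 ppm, and between 38.4 and 131 in NK cells, macrophages and cDCs. B cells held 40.0%, 52.1% and 80.6% of all Ighd UMIs of their library but 9.37%, 7.65% and 23.4% of the Ighm UMIs.

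T cells, which make no antibody, served as background. In them the 8 B cell markers together were at 28.5 to 331 ppm, and their part in the Ighm level of T cells was not tested. With every cell thinned to 1000 UMIs, an Ighm UMI was seen in 41.2% ± 4.44 of B cells and 8.19% ± 2.35 of T cells. For Ighd the thinned shares were 16.7% ± 4.22 and 0.366% ± 0.273. Thinning left out 27 B cells and 529 T cells of fewer UMIs, and unthinned the Ighm shares were 62.9% ± 7.26 and 17.7% ± 8.69, with median depths of 1710 to 3836 UMIs in B cells and 1807 to 3795 in T cells. T cells with plasma cell markers, described below, were left out of these shares.

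The pDCs carried Ighm at the level of B cells but no Ighd. Ighm stood at 599, 511 and 537 ppm in the pDCs of libraries 1, 2 and 3 (549 ± 45.2), so the values of pDCs and B cells overlapped. An Ighd UMI was seen in 0 of 62 pDCs, which allows a share of up to 4.84% of cells with a UMI. Ighg1, Ighg2c, Ighg3 and Ighe were also at 0 in all 62. Thinned to 1000 UMIs, 29.8% ± 5.56 of pDCs had an Ighm UMI. By the rule used for B cells, 6 of 12, 24 of 43 and 4 of 7 pDCs would have been assigned an isotype, Ighm in each. All 6 pDC markers were detected in the pDCs of every library, at 9931 to 13280 ppm, while the B cell markers were at 29.2 to 225 ppm, with 1 to 5 of 8 detected. Plasma cell markers were at 416 to 511 ppm, against 6664 to 7602 in plasma cells. Ms4a1, which encodes the B cell surface protein CD20, was at 0 in libraries 1 and 3 and at 16.8 ppm in library 2. Of the other B cell markers, Cd79b was at 14.6, 50.5 and 44.7 ppm in the pDCs of libraries 1 to 3, and Cd79a at 14.6, 129 and 0.

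**Figure D1:**
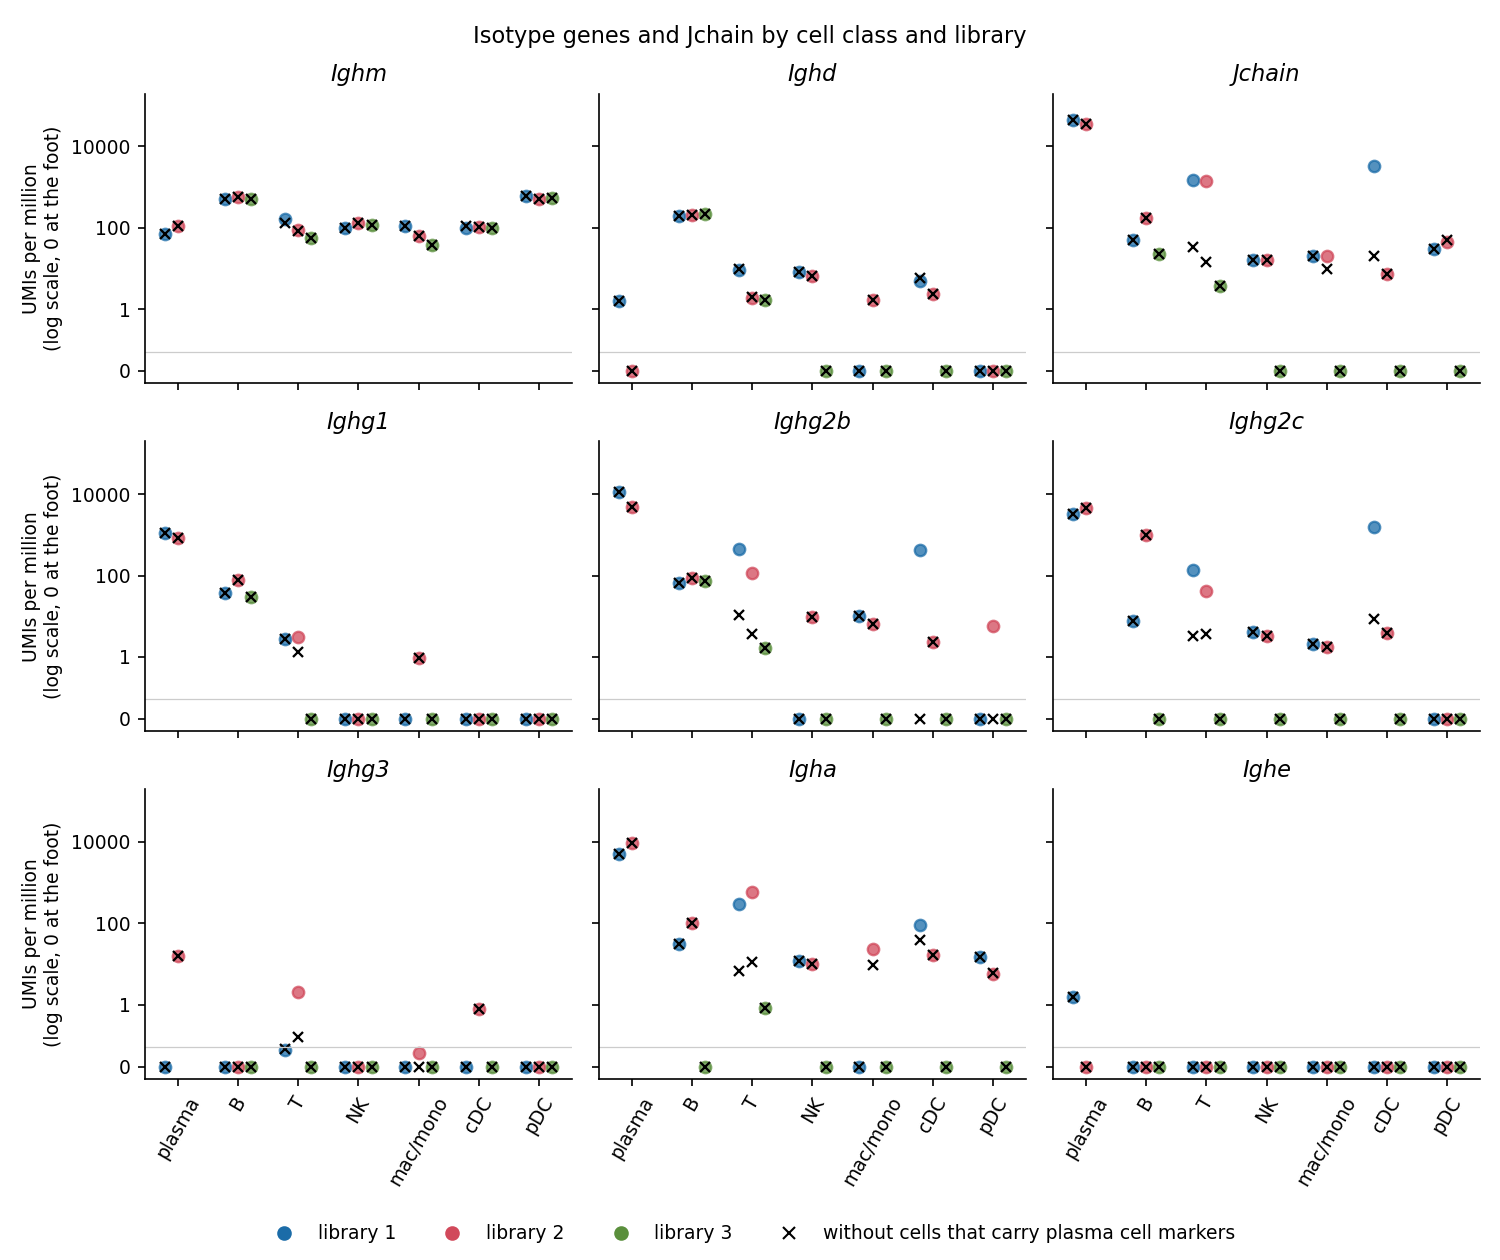
Level of each of the 9 genes in ppm (UMIs in 1000000 of the class, log scale, values of 0 drawn at the foot) in each cell class, with 1 point per library and crosses for the value without cells that carry plasma cell markers. Plasma cells have points for libraries 1 and 2. Ighm is as high in pDCs as in B cells, Ighd is highest in B cells, and the crosses of Jchain in T cells fall from 1512 and 1432 to 34.2 and 14.02 in libraries 1 and 2.

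Jchain was the most abundant of the 9 genes in plasma cells. It stood at 45120 and 36280 ppm in the plasma cells of libraries 1 and 2, and 840 of the UMIs of the single plasma cell of library 3, or 45050 ppm. In B cells it stood at 50.01, 178 and 22.2 ppm, and 1 cell carried 90 of the 120 Jchain UMIs of library 2, without which that library's value was 44.7. The class median was 26758 and 23035 UMIs per cell in plasma cells of libraries 1 and 2. Jchain was detected in 22 of 23 and 70 of 72 of these cells, and thinned to 1000 UMIs in 94.3% ± 4.19 (n = 2), against 3.22% ± 1.81 of B cells and 1.82% ± 1.51 of T cells (n = 3).

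Of the isotype genes, 4 switched genes were high in plasma cells and Ighm was low. In plasma cells of libraries 1 and 2, Ighg2b stood at 11040 and 4821 ppm, Igha at 5021 and 9345, Ighg2c at 3234 and 4469, and Ighg1 at 1096 and 857. The order of Ighg2b and Igha was opposite in the 2 libraries, and Ighg1 was the lowest of the 4 in both. Ighm stood at only 69.9 and 111 ppm in plasma cells, below the 501 to 581 of B cells. Ighd was at 1.55 and 0.

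Ighg3 and Ighe, which encode IgG3 and IgE heavy chains, were close to absent. Ighg3 was at 0 in the plasma cells of library 1 and at 15.99 ppm in library 2, from 28 UMIs in 3 cells. Ighe had 1 UMI in the plasma cells of library 1 and 0 in those of library 2, and library 2 had 1 in a cell that passed several gates. Neither gene had a UMI in any of 518 B cells, which allows up to 0.579% of B cells with a UMI.

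Most UMIs of Jchain, and in libraries 1 and 2 of these 4 switched genes, came from cells with plasma cell markers. Such cells, inside and outside the plasma cell gate, held 99.1%, 99.4% and 98.3% of the Jchain UMIs of libraries 1 to 3, and 97.0%, 97.9% and 95.4% of the Ighg2b UMIs. They held 97.9% and 96.8% of Igha and 99.1% and 92.3% of Ighg2c in libraries 1 and 2, and 88.4% and 94.3% of Ighg1. In library 3 they held 1 of 7 Igha and 0 of 6 Ighg1 UMIs. Of the Ighm UMIs they held 15.2%, 7.996% and 2.41%.

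Each plasma cell was led by 1 isotype gene. A cell was assigned when its leading isotype gene had at least 2 UMIs and IgM/IgD did not tie with a switched gene. In library 1, 22 of 23 plasma cells were assigned, and all 22 were switched (100%, interval 84.6 to 100). In library 2, 71 of 72 were switched (98.6%, interval 92.5 to 99.96), and the remaining cell was led by 3 Ighm UMIs and had 0 Jchain UMIs. The 1 plasma cell of library 3 was led by Ighg2b.

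Ighg2b led in library 1 and Igha in library 2. Of the 22 assigned cells of library 1, Ighg2b led 11 (50%, interval 28.2 to 71.8), Igha 6 (27.3%, 10.7 to 50.2), Ighg2c 3 (13.6%) and Ighg1 2 (9.09%). Of the 72 of library 2, Igha led 37 (51.4%, 39.3 to 63.4), Ighg2b 19 (26.4%, 16.7 to 38.1), Ighg2c 11 (15.3%) and Ighg1 4 (5.56%). The intervals of the 2 libraries overlapped for every isotype. Cells of 1 library share their mouse, and cells of 1 clone could be counted several times, which was not examined here.

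The leading gene took almost all isotype UMIs of its cell. Its median share of the cell's isotype UMIs was 99.4% in library 1 (73.3 to 100) and 98.6% in library 2 (50.8 to 100) among switched plasma cells. At least 90% belonged to 1 gene in 19 of 22 and 61 of 71 of these cells. The leading gene had a median of 444 and 370 UMIs per cell. The cell at 50.8% had 1897 Igha UMIs and 1835 Ighg2c UMIs, which were most of the 1881 Ighg2c UMIs found in the 37 Igha-led cells of library 2. Light-chain UMIs were led by kappa in 22 of 22, 71 of 71 and 1 of 1 switched plasma cells.

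Small counts of a second isotype were found in either direction along the locus. Ighg2b-led cells carried 108 and 112 Igha UMIs in libraries 1 and 2, a gene that lies 3′ of Ighg2b, in 7 and 12 cells, and 44 and 75 UMIs of Ighm, which lies 5′ of it. Summed over genes, Ighg2b-led cells had 481 and 331 ppm from genes 3′ of the leading gene and 192 and 223 from genes 5′ of it. The order varied in other cells: Ighg2c-led cells had 10.4 and 285 ppm from 3′ genes against 124 and 59.6 from 5′ genes, and Ighg1-led cells had 742 and 81.2 against 0 and 556. The genes 5′ of the leading one are those that a switch deletes on the rearranged allele.

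**Figure D2:**
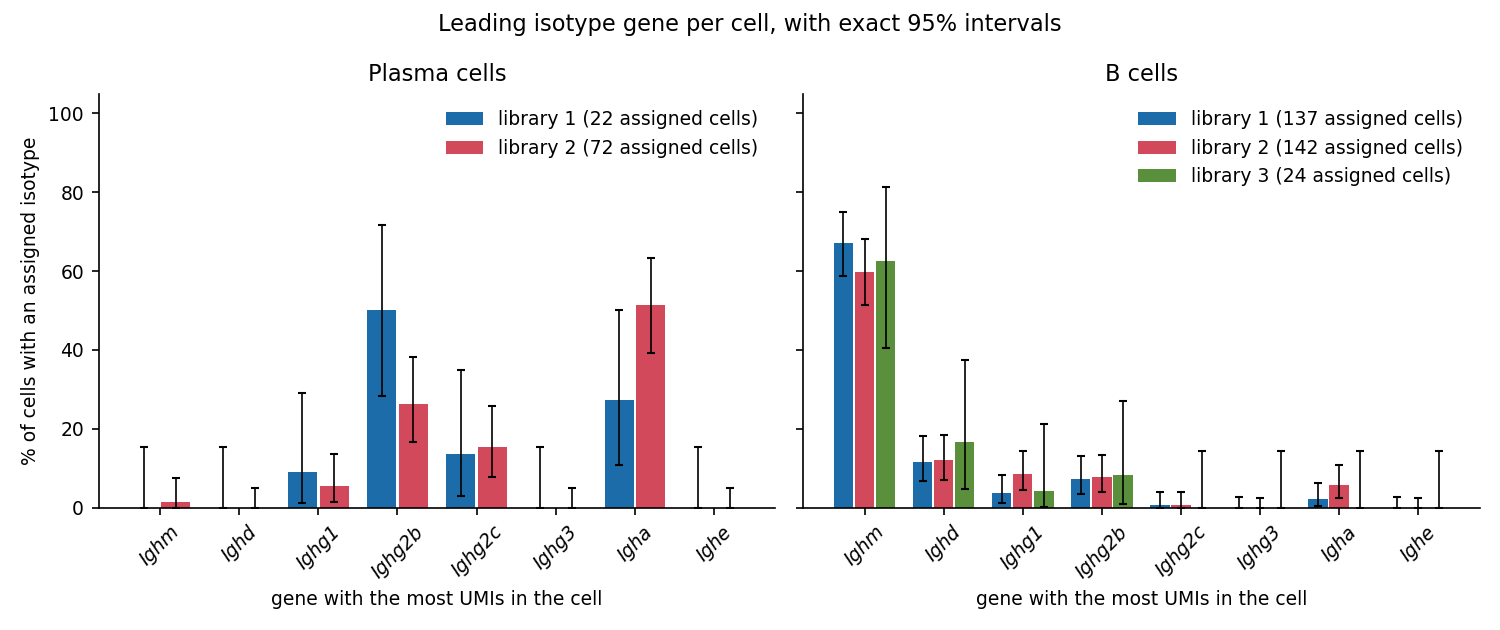
Share of assigned plasma cells (left) and B cells (right) led by each isotype gene, in percent, with 1 bar per library and exact 95% intervals. Plasma cells are spread over Ighg2b (50% and 26.4%), Igha (27.3% and 51.4%), Ighg2c and Ighg1, while B cells are mostly led by Ighm in all 3 libraries.

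The median share of Jchain was highest in plasma cells led by Igha or Ighg2c. In Igha-led cells its median share of all UMIs of the cell was 6.11% in library 1 (6 cells) and 4.58% in library 2 (37 cells). In Ighg2c-led cells it was 7.44% (3 cells) and 2.53% (11 cells). In Ighg2b-led cells it was 3.04% (11 cells) and 1.33% (19 cells).

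Jchain also stood high in IgG cells, whose antibody has no joining chain. Ighg1-led cells had medians of 2.54% (2 cells) and 2.00% (4 cells). Jchain UMIs outnumbered those of the leading isotype gene in 16 of 22 and 56 of 71 switched plasma cells. That was so in 5 of 6 and 36 of 37 Igha-led cells, in 3 of 3 and 10 of 11 Ighg2c-led cells, in 2 of 2 and 2 of 4 Ighg1-led cells, and in 6 of 11 and 8 of 19 Ighg2b-led cells. These are cells of 2 mice, so the isotypes were not tested against each other.

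**Figure D3:**
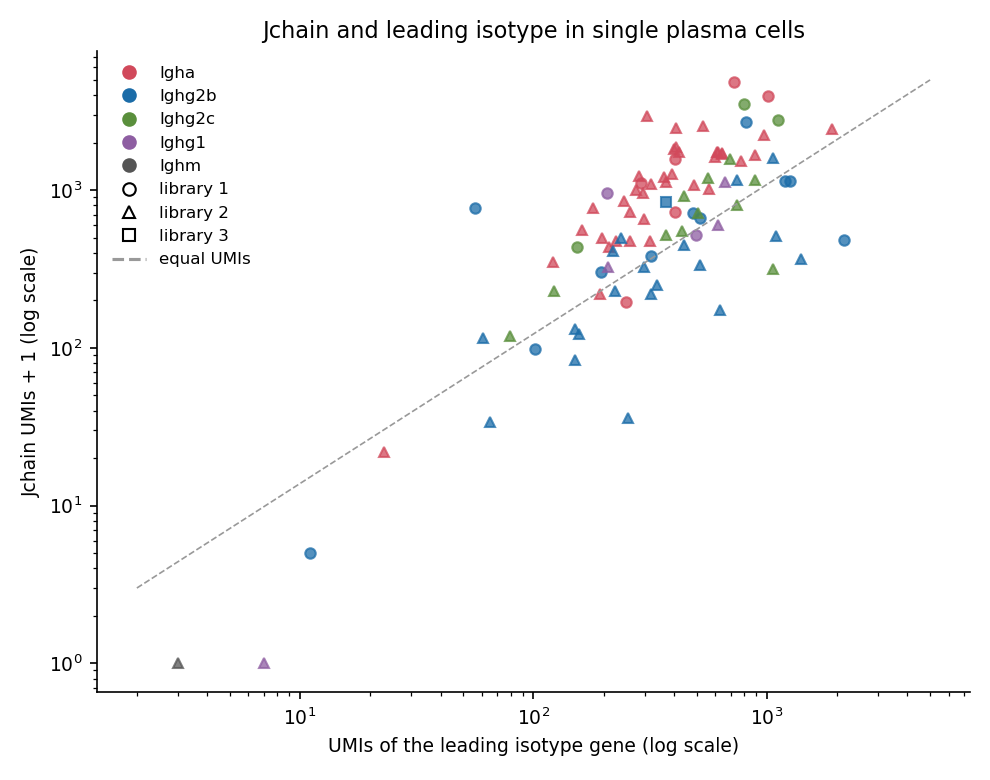
Jchain UMIs + 1 against UMIs of the leading isotype gene in each assigned plasma cell (both axes log scale), coloured by the leading gene and shaped by library, with a dashed line at equal UMIs. Most Igha-led cells lie above the line (36 of 37 in library 2), and Ighg2b-led cells lie on both sides of it (8 of 19 above in library 2).

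B cells were mostly unswitched. An isotype was assigned to 137 of 214, 142 of 229 and 24 of 75 B cells of libraries 1 to 3, and 28, 23 and 23 B cells had no isotype UMI at all. Ighm led in 92, 85 and 15 assigned cells and Ighd in 16, 17 and 4, with 9, 8 and 2 in which the pair tied. UMIs of both Ighm and Ighd were found in 78, 62 and 11 cells.

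Switched genes led in 20, 32 and 3 B cells. The switched share of assigned B cells was 14.6% (interval 9.15 to 21.6), 22.5% (15.95 to 30.3) and 12.5% (2.66 to 32.4), with a mean of 16.6% ± 5.30 (n = 3). In plasma cells it was 99.3% ± 0.983 (n = 2), and the intervals of the 2 classes did not overlap in libraries 1 and 2. Over all B cells of a library, assigned or not, the switched share was 9.35%, 13.97% and 4.00%. The same rule gave a switched isotype to 1.62%, 0.822% and 0.0902% of T cells, or 1.08%, 0.236% and 0.0902% without plasma-marker cells. This is the background of the switched calls only. The background of the IgM/IgD calls was larger: 7.90% ± 6.05 of all T cells were given IgM/IgD, against 43.6% ± 13.9 of all B cells (n = 3). Of the T cells that the rule assigned, 10.2%, 10.5% and 3.70% were switched, or 6.97%, 3.25% and 3.70% without plasma-marker cells.

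The switched B cells were led by Ighg2b (10, 11 and 2 cells), Ighg1 (5, 12 and 1), Igha (3, 8 and 0) and Ighg2c (1, 1 and 0). Ighg1 thus led 18 of the 55 switched B cells over the 3 libraries. An Ighm UMI was seen in 1 of 20, 2 of 32 and 1 of 3 of them and an Ighd UMI in none. A Jchain UMI was seen in 4 of 20, 8 of 32 and 1 of 3 switched B cells, against 11 of 117, 3 of 110 and 1 of 21 IgM/IgD B cells. The median depth of switched B cells was 4678, 4469 and 2249 UMIs, above the 3965, 2444.5 and 1747 of IgM/IgD B cells, and its part in these shares was not tested.

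Levels of the switched genes in all B cells were far below those of plasma cells. Ighg2b stood at 66.3, 87.3 and 73.9 ppm, Ighg1 at 36.3, 78.4 and 29.6, and Igha at 31.3, 104 and 0. Ighg2c stood at 7.50, 1012 and 0, and 1 cell decided the value of library 2: it held 676 of 684 Ighg2c UMIs, and without it the level was 11.9. That cell had 5075 UMIs in all, 1414 of Igkc, 90 of Jchain, 1 of the plasma cell marker Mzb1 and 0 of Ms4a1, and it did not carry the set of plasma cell markers.

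Cells with plasma cell markers were also found in other classes, and in T cells of libraries 1 and 2 they carried most Jchain, Igha, Ighg2b and Ighg2c UMIs. In T cells there were 17 in library 1, 21 in library 2 and 0 in library 3. Of these 16 and 20 had at least 50 UMIs of 1 isotype gene. Their median was 35040 and 19990 UMIs per cell, against 3795 and 2679 for all T cells. Each had a Cd3 UMI, which the T cell gate requires of every cell. These 16 and 20 cells held 97.8% and 99.1% of the Jchain UMIs of T cells. With plasma-marker cells left out, Jchain in T cells went from 1512, 1432 and 3.67 to 34.2, 14.02 and 3.67 ppm. Igha went from 296, 593 and 0.814 to 6.54, 11.4 and 0.814, and Ighg2b from 449, 115 and 1.63 to 10.8, 3.56 and 1.63. Ighg1 went from 35 to 34 UMIs in T cells of library 1 and from 40 to 17 in library 2, and in macrophages of library 2 the 96 Ighg2b and 27 Ighg2c UMIs were the same with and without such cells. In the cDCs of library 1, 2 such cells gave most of the 3217 ppm of Jchain and 1564 ppm of Ighg2c. Whether these barcodes held 2 cells or free RNA was not tested, so each test on other classes is given with and without them.

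B cells were compared with T cells to set the isotype genes against background. With all gated cells, 4 of the 7 members that passed the low-count filter differed, against 22.5% of all 8322 genes tested. Ighg3 and Ighe did not pass it. The log2 difference of B cells over T cells in edgeR's quasi-likelihood test was 5.71 for Ighd (SE 0.43, adjusted p = 3.2e-08), 4.53 for Ighg1 (SE 0.45, adjusted p = 3.28e-06) and 2.50 for Ighm (SE 0.28, adjusted p = 1.33e-06). Igha was lower in B cells, at -2.70 (SE 0.69, adjusted p = 0.00641). With plasma-marker cells left out of other classes, all 7 tested members were higher in B cells, against 23.9% of genes called in either direction, and Igha turned to 2.90 (SE 0.48, adjusted p = 8.63e-05). In that fit Jchain was at 2.51 (SE 0.46, adjusted p = 0.000287, from -2.99 with all cells) and Ighg2b at 4.04 (adjusted p = 1.59e-06, from -0.02). Ighg2c was at 6.61 (adjusted p = 0.000746), but with all gated cells it was at 3.04 (adjusted p = 0.309) and at -4.05 without library 2, where 1 B cell held 676 of its 684 UMIs. With DESeq2 and all gated cells, Ighg1 (adjusted p = 0.168) and Igha (adjusted p = 0.340) did not pass. In edgeR's test the median of the 7 tested members was 4.04 without plasma-marker cells and 2.50 with all gated cells.

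Plasma cells and B cells differed in 6 of the 7 tested members, against 31.1% of the genes tested. Jchain was higher in plasma cells by 9.54 on the log2 scale (SE 1.72, adjusted p = 0.000325), Igha by 8.31 (SE 0.86, adjusted p = 8.72e-07), Ighg2b by 7.03 (SE 1.48, adjusted p = 0.00127) and Ighg1 by 5.57 (SE 0.47, adjusted p = 9.78e-07). These 4 stood against 16.0% of genes higher in plasma cells. Ighd was lower at -7.37 (SE 0.90, adjusted p = 8.27e-06) and Ighm at -1.23 (SE 0.33, adjusted p = 0.00719), against 15.1% of genes lower. Ighg2c was at 4.19 (SE 1.74, adjusted p = 0.0855), and at 10.18 (adjusted p = 2.64e-33) without library 2. Ighg1 did not pass with DESeq2 (adjusted p = 0.0927), nor Ighm without the library block (adjusted p = 0.0558). With plasma-marker cells left out of other classes, Ighg2c was at 5.10 (SE 1.08, adjusted p = 0.00212) and 7 of 7 tested members passed, against 32.4% of genes. The 7 had a median of 5.57, and all genes tested a median of -0.15. Scaling by library totals instead of TMM moved that median to -1.59, with 311 genes higher and 5215 lower in plasma cells. Under it the same 6 members passed in the same directions, with Ighm at -2.70.

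Macrophages and T cells, which make no antibody, differed in 3 of the 7 tested members with all gated cells and in 0 of 7 without plasma-marker cells, against 41.2% and 42.4% of genes. Jchain (-5.48), Igha (-4.43) and Ighg2b (-3.70) were lower in macrophages in the first fit, with adjusted p = 0.00384, 7.86e-05 and 0.0169. In the second, Ighm was at 0.08 (SE 0.25, adjusted p = 0.825).

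The pDCs had more Ighm than T cells in both fits. The log2 difference was 2.19 (SE 0.32, adjusted p = 5.89e-05) with all gated cells and 2.38 (SE 0.28, adjusted p = 3.71e-06) without plasma-marker cells, from the pDC sums of libraries 1 and 2. With all cells, 3 of 7 tested members passed, against 16.9% of genes, and the other two, Igha (-5.86, adjusted p = 0.000904) and Jchain (-5.02, adjusted p = 0.0292), were lower in pDCs. Without plasma-marker cells, 1 of 7 passed, against 16.5% of genes, with Igha at -0.18 (adjusted p = 0.958) and Jchain at 0.88 (SE 0.67, adjusted p = 0.442). Ighd, Ighg1 and Ighg2c had no UMI in any of the 62 pDCs, so these counts do not show that pDCs and T cells are alike in the other members.

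**Figure D4:**
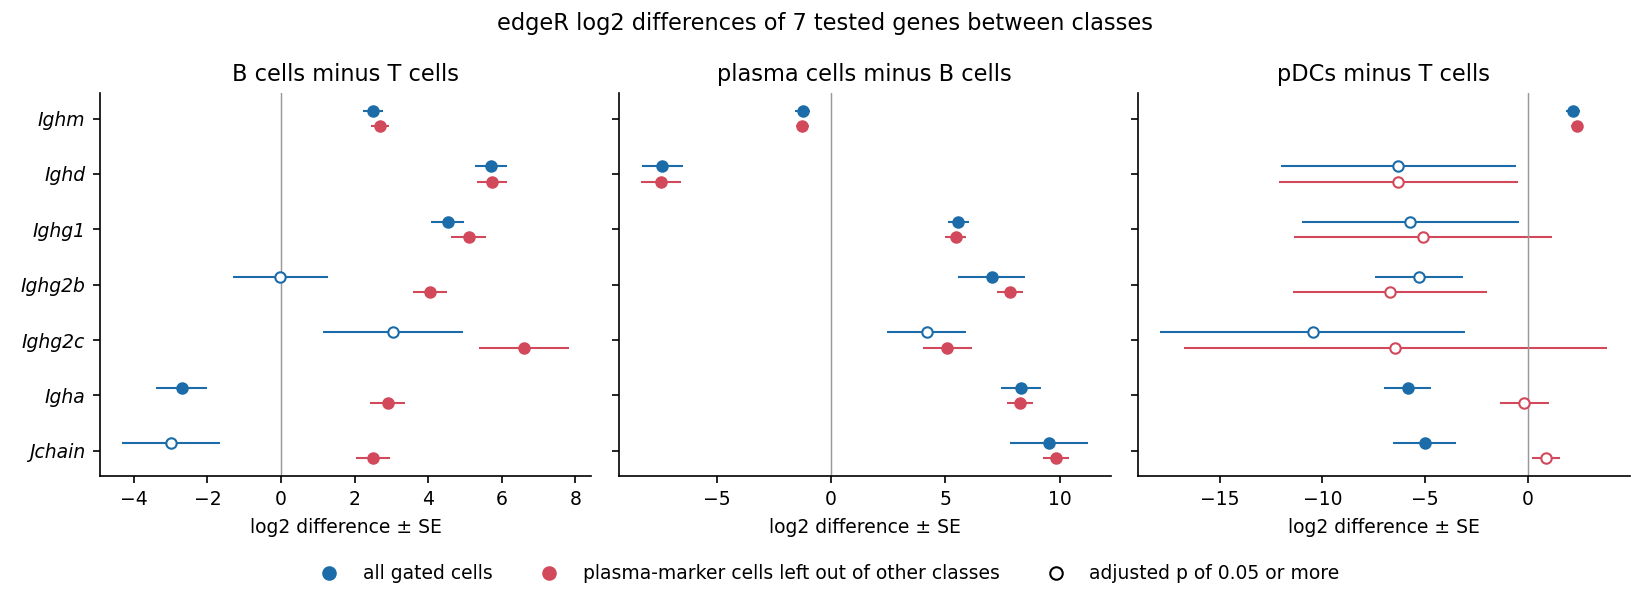
Log2 differences ± SE from edgeR for the 7 tested members between B and T cells, plasma and B cells, and pDCs and T cells, with all gated cells (blue) and without plasma-marker cells in other classes (red); open points have an adjusted p of 0.05 or more. Ighm and Ighd keep their place in the first 2 panels, Igha moves from -2.70 to 2.90 between B and T cells, and Ighm stands at 2.19 and 2.38 in pDCs.

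Genes that work with the antibody were read from 7 lists in the same comparison of plasma cells with B cells. Over all genes tested, 16.0% were higher and 15.1% lower in plasma cells. Of the antibody secretion list, 13 of 14 tested genes were higher in plasma cells and 0 lower, with a median log2 difference of 4.77. Xbp1, the transcription factor of the secretory programme, was at 3042 and 3561 CPM in plasma cells of libraries 1 and 2 against 95.04 and 47.4 in B cells (log2 difference 5.88, SE 0.39, adjusted p = 7.66e-09). Hsp90b1, a chaperone of the endoplasmic reticulum, and Sec11c, a part of the signal peptidase, were higher by 4.70 and 4.68. Mzb1, which aids antibody folding, did not pass (3.50, SE 1.64, adjusted p = 0.117). Its levels were nevertheless far apart, at 10930 and 13450 CPM in plasma cells of libraries 1 and 2 against 439 and 581 in B cells. Irf4 was at 1.09 (adjusted p = 0.0122), and at -0.43 when scaled by library totals. Of this list, Mzb1, Derl3, Sdc1, Tnfrsf17, Fkbp11, Txndc5 and Prdm1 helped to gate the plasma cells and are no independent finding.

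Among 11 B cell receptor partners and light chains, 2 were higher and 3 lower in plasma cells, with a median of -0.98, beside 16.0% of all genes tested higher and 15.1% lower. Igkc, the kappa constant gene, was at 50740 and 44720 CPM against 801 and 3238 in B cells (4.02, SE 1.19, adjusted p = 0.0144), and Iglc1, a lambda constant gene, was higher by 2.98 (adjusted p = 0.0340). The lambda genes Iglc2 (2.62, adjusted p = 0.0771) and Iglc3 (1.17, adjusted p = 0.272) did not pass. Scaled by library totals, Igkc (adjusted p = 0.0549) and Iglc1 (adjusted p = 0.200) did not pass. Among those lower were Cd22, an inhibitory co-receptor, at -4.61 (adjusted p = 0.00221) and the kinase gene Syk at -1.36 (adjusted p = 0.00721). Cd79a, which pairs with membrane antibody, did not pass at -1.69 (adjusted p = 0.232). Cd22 and Cd79a are B cell gate markers.

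Receptors and trafficking genes of naive B cells were lower in plasma cells. All 8 genes of the naive and follicular list passed as lower, with a median of -4.69, beside 15.1% of all genes tested. Fcmr, the IgM Fc receptor and a B cell gate marker, was at 13.7 and 0 CPM against 349 and 292 (-6.14, SE 0.80, adjusted p = 2.65e-05), and the chemokine receptor Ccr7 was at 37.7 and 12.4 against 1485 and 1166 (-5.68, adjusted p = 0.00151). Of 8 cytokine receptors that steer switching, 7 were lower and 0 higher, with a median of -2.78, beside the same 15.1% of genes lower. Among them, Il4ra was at -5.94, Cd40 at -3.97 and Il21r, the receptor of interleukin 21, at -2.67 (SE 0.45, adjusted p = 0.000177).

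Of 6 tested genes of the Fc and polymeric immunoglobulin receptor list, 3 were lower and 0 higher, beside 15.1% of all genes lower. Among the 3 was the inhibitory receptor Fcgr2b at -2.70 (median of the list -4.03). Fcer1g and Fcgrt, also lower, were at 0 to 3.42 CPM in plasma cells and 0 to 20.1 in B cells. Fcgr1, Fcgr3 and Fcgr4 were at 0 CPM in plasma cells and 0 to 2.96 in B cells. The median thus rests in part on genes near 0 in both classes. Pigr and Fcamr of the list were not tested. Of 9 memory and T-bet genes, 1 was higher, the chemokine receptor Cxcr3 (3.60, SE 0.44, adjusted p = 5.96e-06), and 4 were lower, among them Cd38 at -4.15 (median -1.92), beside 16.0% of all genes higher and 15.1% lower. Of 5 tested class switching and germinal centre genes, the proliferation gene Mki67 (3.62, adjusted p = 3.57e-05) and Fas (1.92, adjusted p = 0.0166) were higher and the germinal centre regulator Bcl6 was lower, from 17.8 to 33.4 CPM in B cells to 0 in plasma cells (median 1.08). Fas did not pass with library totals (0.44, adjusted p = 0.546).

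Switched B cells were then compared with IgM/IgD B cells of the same libraries, for genes other than the isotype genes that formed the groups. Jchain was given no test here either. Sums of at least 10 cells could be made of switched cells in libraries 1 and 2 (20 and 32 cells) and of IgM/IgD cells in all 3, which left 1 residual degree of freedom. In edgeR's test 198 of 2457 genes passed, or 8.06%, with 3.79% higher and 4.27% lower in switched cells. The count was 21 without the library block and 22 with DESeq2, so a gene below is a call of this fit.

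Apart from the lists, 8 abundant genes were named on each side by the size of their difference. Among those higher in switched cells, Apoc2, an apolipoprotein gene, was at 387 and 251 CPM in switched cells of libraries 1 and 2 against 0 and 7.52 in IgM/IgD cells (log2 difference 6.69, SE 0.52, adjusted p = 1.72e-11). The protease inhibitor gene Slpi was at 143 and 1269 against 4.28 and 22.6 (5.63, adjusted p = 5.8e-14). Anxa2, an annexin gene, was at 278 and 384 against 14.98 and 15.05 (4.43, adjusted p = 3.52e-11), and Itgb1, the integrin beta 1 gene, at 497 and 321 against 59.9 and 52.7 (2.93, adjusted p = 9.21e-10). The others were Fscn1, Fgl2, Rgs1 and Tent5c, at 4.87, 2.95, 2.69 and 2.51. Fscn1 is also on the cDC marker list, of which the other 7 genes were at 0 in switched cells, while Fscn1 stood at 113 and 142 ppm.

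Among the 8 genes lower in switched cells, Foxp1, a transcription factor, was at 33.7 and 83.7 CPM against 413 and 436 in IgM/IgD cells (-2.75, SE 0.31, adjusted p = 4.27e-08). Cd72, a B cell co-receptor, was at 59.0 and 55.8 against 437 and 421 (-2.82, SE 0.29, adjusted p = 1.18e-08). Satb1, a chromatin organiser, was at 25.3 and 6.97 against 146 and 135 (-3.07, adjusted p = 7.32e-05). Rasgef1b (-4.95), Lrrk2 (-4.79), Pxk (-3.57), Neurl3 (-3.39) and Pxdc1 (-2.69) were also lower. In each of these genes the values of the 2 groups did not overlap in libraries 1 and 2. The rule that named them asked for the largest differences with the same direction in both libraries, so this is no independent finding. Without the library block, Fgl2, Tent5c, Lrrk2, Neurl3, Satb1 and Pxdc1 fell short of the threshold, and with DESeq2 Rgs1, Pxk and Satb1 did.

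Among the lists, naive genes were lower again and secretion genes did not separate the groups. The median of the 7 tested naive and follicular genes was -1.03, against -0.01 for all genes tested. Beside 4.27% of all genes lower, 5 of the 7 were lower in switched cells and 0 higher. Among them were Fcer2a, the low-affinity IgE receptor CD23 (-2.68, SE 0.42, adjusted p = 2.18e-05, and 0.149 with DESeq2), Fcmr (-2.05), S1pr1 (-1.03) and Klf2 (-0.89). Ccr7 was at -0.01 and Cxcr5 at -0.88 (adjusted p = 0.0559). Of 8 tested secretion genes none passed in either direction, with a median of 0.16, and Xbp1 was at 0.28 (SE 0.48, adjusted p = 0.832). Of 7 tested cytokine receptors none passed, Il21r being at -0.9994 (SE 0.34, adjusted p = 0.0672).

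Cd80, a co-stimulatory ligand and memory B cell marker, was at 92.6 and 83.7 CPM in switched cells against 0 and 3.76 (5.54, SE 1.07, adjusted p = 0.000482, and 0.111 without the library block) and was 1 of 2 memory genes tested. Fas was higher by 1.98 (adjusted p = 0.0457), the single germinal centre gene tested. Of 11 receptor partners and light chains, 2 were higher (Iglc1 1.92, Igkc 1.62) and 3 lower (Blnk -1.19, Cd79b -0.84, Cd79a -0.39). That stood beside 3.79% of all genes tested higher and 4.27% lower. The Igkc difference rested on 1 cell of library 2, without which its level in switched cells went from 10360 to 1287 ppm, and in library 1 Igkc was lower in switched cells (817 against 965 CPM).

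**Figure D5:**
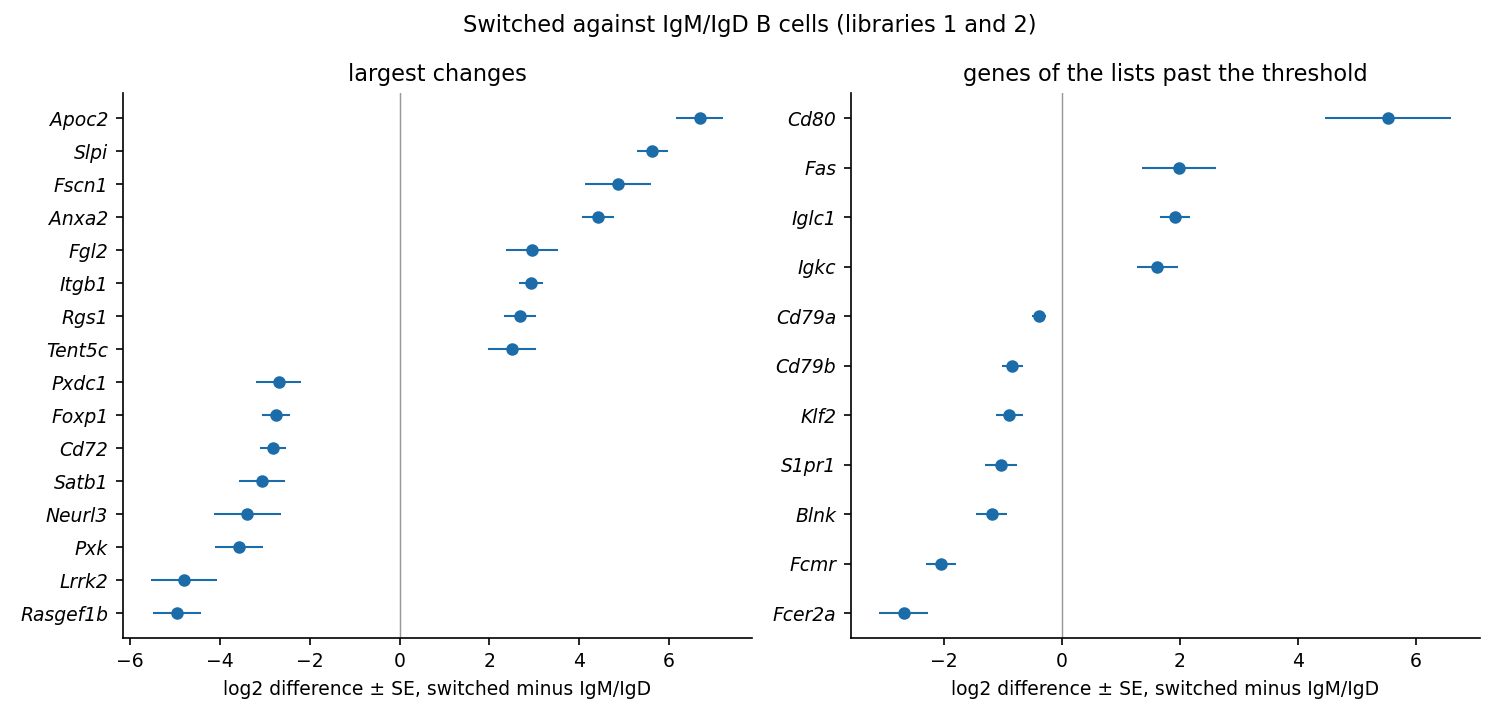
Log2 differences ± SE from edgeR between switched and IgM/IgD B cells for the largest changes by rule (left) and for genes of the lists that passed the threshold (right). Apoc2 (6.69) and Cd80 (5.54) lead the higher side, and Rasgef1b (-4.95) and Fcer2a (-2.68) the lower side.

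The genes most like the members across classes were found by Pearson correlation of log2(CPM + 1) over 19 sums of class and library, among 7510 genes that are no immunoglobulin genes. The sums share libraries and differ in depth, and the values are a description. Ighm was most like Srpk3 (r = 0.881), Spib (0.880), Trim11 (0.880), Cacna1e (0.880) and Ptp4a3 (0.846), and its correlation with Ighd was 0.548. Spib encodes a transcription factor of both B cells and pDCs. Jchain was most like Sdc1 (0.921), Fkbp11 (0.920), Prg2 (0.893), Derl3 (0.877) and Mzb1 (0.851), and Igha was most like Fkbp11 (0.900), Sdc1 (0.876), Prg2 (0.861), Derl3 (0.824) and Srprb (0.792). Sdc1, Fkbp11, Derl3 and Mzb1 are plasma cell gate markers, and Srprb encodes a subunit of the signal recognition particle receptor.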

How the data were processed

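The authors mapped 5′ reads to mm10 with Cell Ranger (5.0.1 for library 1, 6.1.2 for libraries 2 and 3, per the file headers) and deposited a matrix of unnormalized UMI counts for each library. Library 1 took the row order of the others: its row totals had a Spearman correlation across genes of 0.9501 and 0.9287 with them. Here, cells with under 300 UMIs, over 5000 genes or over 20% mitochondrial UMIs were left out, as in the study. B and T cells needed 2 markers of their class and plasma cells 3 with Mzb1 among them, plasma and B cells without a Cd3 UMI, and cells passing several gates stayed out of the classes. Counts were summed per library and class (at least 10 cells) and tested with edgeR 4.0.16 in R 4.3.3 (quasi-likelihood, TMM, filterByExpr, Benjamini-Hochberg over all genes tested, threshold 0.05), with the library as a block, since the classes of 1 library come from the same mice. The SE of an edgeR difference, in the text and figures, is the absolute log2 difference divided by the square root of its F statistic. It is derived from the test and is not a separate estimate. CPM are TMM-scaled, and ppm are UMIs of a gene in 1000000 UMIs of a class, unscaled. The fit was tested on simulated data. DESeq2 1.42.0, other gates, assignments and filters, and leaving out each library were tried. Genes named outside the lists were the up to 8 per direction with the largest called difference, the same direction in both libraries and a mean of at least 50 CPM, and for likeness the 5 highest among genes with a mean of at least 10 CPM. The 9 genes and all lists were chosen with earlier results of these data known. The alternative without plasma-marker cells and the 50-UMI limit were chosen after seeing the data. Some single-gene results are not reported here.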

Additional observations from a re-analysis of the deposited data

Results flagged for a closer look

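Cells outside every class, or in several at once, were in none of the comparisons, yet 17 of them in library 1 and 55 in library 2 had at least 50 UMIs of 1 isotype gene, and none did in library 3. Plasma cell markers were carried by 16 and 53 of them. Among these, the leading gene was Ighg2b in 10, Ighg2c in 3 and Igha in 3 cells of library 1, and Igha in 24, Ighg2b in 15 and Ighg2c in 14 cells of library 2. The leading gene held a median of 99.3% and 99.2% of a cell's isotype UMIs, and Jchain a median of 3.16% and 1.82% of all its UMIs. A Cd3 UMI was present in 16 and 27 of them. The plasma cell gate refuses any cell with a Cd3 UMI, and cells that pass several gates were left out of all classes. Of 48 cells of library 2 left out in the second way, 44 passed the macrophage gate, 26 the plasma cell gate, 22 the T cell gate and 12 the cDC gate. Whether these barcodes held 2 cells was not tested.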

How the results depend on the processing

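The library block carries the pairing of classes from the same mice. Without it the genes called fell to 21 for switched B cells (198 with it) and to 1322 for B against T cells (1870), 1955 for plasma against B cells (2588) and 1142 for pDCs against T cells (1404). For switched B cells the count was also 39 with a minimum of 3 UMIs for an isotype, 22 with DESeq2 and 118 with stricter gates. Macrophages against T cells gave 5649 without the low-count filter, and plasma against B cells 5526 with library totals. The mean switched share of B cells was 22.25% at 3 UMIs and 9.874% after thinning to 1000 UMIs, that of plasma cells was 97.13% at 1 UMI, and T cells assigned an isotype rose to 20.77% at 1 UMI.

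Leaving out 1 library gave 1394 to 1646 genes called for B against T cells, 2465 to 3317 for macrophages, 761 (without library 2) to 1315 for pDCs and 1325 (without library 2) to 2590 for plasma cells, with 1635 without library 1. For switched B cells, 243 were called without library 3, and leaving out library 1 or 2 left no residual degree of freedom. The shares ranged over 13.55 to 18.57% of B cells, 98.61 to 100% of plasma cells and 5.138 to 11.91% of T cells.

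Over 100 results for single genes, each recomputed under the alternatives that apply to it, 1067 recomputed values kept direction and side of the threshold, 87 fell short of it, 22 newly passed it and 14 turned, and 8 had no adjusted p in DESeq2. Between B and T cells, Igha turned to 2.901 and Jchain to 2.506 without plasma-marker cells, Ighg2c ranged from -4.05 without library 2 to 4.683 without library 1, and Ighg2b from -0.02 to 4.039 without plasma-marker cells, 1.069 without library 1 (-1.296 without library 3), 0.5896 with DESeq2, 0.3174 with stricter gates and 0.01451 without upper limits. In macrophages against T cells without plasma-marker cells, Igha was at 0.05393, Ighg2b at 0.888 and Ighm at 0.08459, and Ighd ranged from -6.421 without library 2 to 0.2504 without library 1. Jchain in pDCs against T cells was at 0.8795 without plasma-marker cells, and Irf4 in plasma against B cells at -0.425 with library totals. The cause was not tested where the setting itself does not show it. Library 3, with 1 plasma cell and a median of 1726 UMIs per cell, adds little on the switched genes.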
